A study of Mus musculus with 12 samples.

Results

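The CXC chemokines other than Cxcl12 were examined as 10 genes: Cxcl1, Cxcl2, Cxcl3, Cxcl5, Cxcl9, Cxcl10, Cxcl11, Cxcl13, Cxcl14 and Cxcl16. They were chosen by name, with earlier results of these data known, as were the gene lists and comparisons below. Counts of members or listed genes beside the share of all genes are therefore a description only. The platform annotation gave the members 17 of the 34945 probe sets that name 1 gene. The brightest of a gene's probe sets stands for it below, so that the members are 10 of 18193 genes tested. The 4 groups, of 3 arrays each, were c-kit+ cells from cultures given 17β-estradiol (17βE), c-kit+ cells from control cultures, CD44+ cells from cultures given 17βE and CD44+ cells from control cultures. All cells came from primary cultures of whole bone marrow of female C57BL/6 mice aged 6 weeks. Treated cultures had received 1 nM 17βE for 1 week and control cultures none. The submitters call the c-kit+ cells stem cells and the CD44+ cells stromal cells, and the question posed by the design is how estrogen alters expression in each. The labels do not say whether the 3 replicates of a group were separate cultures or animals, and a p-value below covers just the scatter among such arrays, which may be technical.

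CXC chemokines are small secreted proteins that attract leukocytes through G protein-coupled receptors. Cxcl1, Cxcl2, Cxcl3 and Cxcl5 act on CXCR2 and draw neutrophils, whereas Cxcl9, Cxcl10 and Cxcl11 act on CXCR3 and draw activated T cells and NK cells. In bone marrow, the CXCR2 ligands are known for releasing neutrophils into the blood, the opposite of the retention by Cxcl12. Transcription of the first class is driven mainly by NF-κB downstream of interleukin-1, TNF and bacterial products, and that of the second by interferons together with NF-κB.

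The markers of the sorted fractions went partly against their labels. Kit, the gene for c-kit, lay between 3.79 and 4.22 on the log2 scale over the 12 arrays, in c-kit+ and CD44+ cells alike. The 9 probe sets of 3 Y-linked genes, which female mice lack, reached 3.98. Cd44 lay between 11.76 and 12.46 on all arrays. The macrophage receptor gene Csf1r lay between 13.86 and 14.11, and the mean of 8 monocyte and macrophage markers lay between 11.33 and 11.77 in both fractions. The fractions are therefore called c-kit+ and CD44+ here only as the labels do. In such mixed samples a smaller number of cells of a type and less RNA per cell cannot be told apart.

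With 17βE, Cxcl10 rose in both fractions by about the same amount. It was the only member that passed the test, an adjusted p under 0.05 in limma's moderated test over all genes, which makes 1 of 10 members against 0.181% of all genes in c-kit+ cells and 1 of 10 against 0.291% in CD44+ cells. Passing upward in both fractions held for 0.137% of all genes. An unadjusted p under 0.05 was found for 4 of 10 members in c-kit+ cells, against 4.47% of all genes, and for 6 of 10 in CD44+ cells, against 5.38%. Of the other members, Cxcl1, Cxcl2, Cxcl3 and Cxcl11 had every 17βE array above every control array in both fractions without passing the test. Such separation held for 5 of 10 members in c-kit+ cells, where 5.34% of all genes had it upward, and for 6 of 10 in CD44+ cells, where 6.75% had it and Cxcl16 was added. The 5 members that separated in both fractions stand beside 1.49% of all genes. No member had its groups separated downward, as 2.47% of all genes did in c-kit+ cells and 5.92% in CD44+ cells. The median log2 difference over the 10 members was 0.31 in c-kit+ cells and 0.43 in CD44+ cells, against 0.016 and 0.010 over all genes, and 8 of 10 differences were above 0 in each fraction, where 55.1% and 53.2% of all genes were. One of these, Cxcl5 in c-kit+ cells, was at background level.

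**Figure D1:**
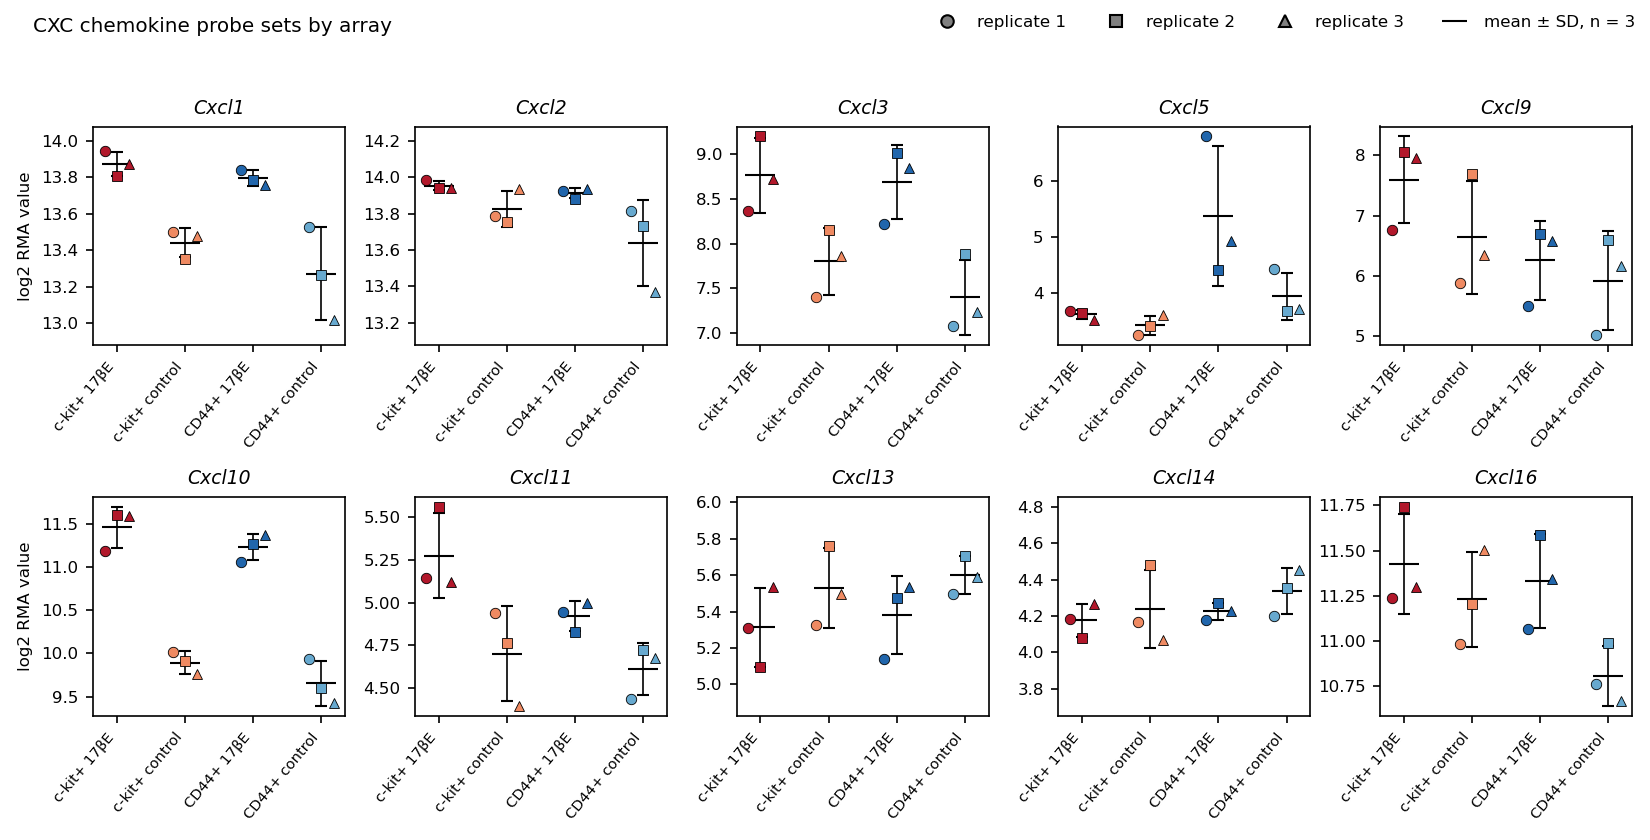
Log2 RMA value of each CXC chemokine on each of the 12 arrays, one panel per gene with its own vertical axis; points are arrays and short bars are group means. Cxcl10 lies between 11.06 and 11.6 on the 6 arrays with 17βE and between 9.42 and 10.01 on the 6 control arrays, whereas Cxcl13 and Cxcl14 show overlapping groups.

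Cxcl10, an interferon-inducible ligand of CXCR3, gave 11.18, 11.6 and 11.58 in c-kit+ cells with 17βE, against 10.01, 9.91 and 9.76 in c-kit+ control cells. In CD44+ cells it gave 11.06, 11.26 and 11.36 with 17βE, against 9.94, 9.6 and 9.42 in control cells. Every treated array was above every control array of either fraction, and the gap between them was 1.05. The log2 difference was 1.56 in c-kit+ cells (SE 0.15, 95% interval 1.23 to 1.89, adjusted p = 0.000887) and 1.57 in CD44+ cells (SE 0.15, 95% interval 1.24 to 1.90, adjusted p = 0.000669) in limma's moderated fit, a fold change of 2.95 and 2.98. By size this was the third largest increase of all genes in c-kit+ cells and the seventh in CD44+ cells. The effects in the 2 fractions differed by -0.013 (SE 0.22, 95% interval -0.48 to 0.46, limma adjusted p = 1.0), so a difference between fractions of more than about 0.5 on the log2 scale lies outside the interval. No gene passed the test of this difference (0%) in limma, 1.63% of genes had an unadjusted p under 0.05, and none of the 10 members did.

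Cxcl9, induced above all by interferon-γ, gave 6.76, 8.06 and 7.96 in c-kit+ cells with 17βE, against 5.88, 7.69 and 6.35 in c-kit+ control cells. Its values in CD44+ cells were 5.51, 6.69 and 6.58 with 17βE, against 5.01, 6.59 and 6.16 in control cells. The treated and control groups overlapped in both fractions, and replicate 1 was the lowest array and replicate 2 the highest in each of the 4 groups. The log2 difference was 0.95 in c-kit+ cells (SE 0.52, limma adjusted p = 0.999) and 0.34 in CD44+ cells (SE 0.52, limma adjusted p = 0.954). Between arrays of equal replicate number, all 3 differences were above 0 in each fraction, at 0.88, 0.36 and 1.61 in c-kit+ cells and 0.49, 0.10 and 0.42 in CD44+ cells. A second Cxcl9 probe set lay between 3.81 and 4.37, at the level of the Y-linked probe sets, and so gives no comparison.

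Cxcl11, the third CXCR3 ligand, gave 5.14, 5.56 and 5.12 in c-kit+ cells with 17βE, against 4.94, 4.77 and 4.40 in c-kit+ control cells. In CD44+ cells the values were 4.95, 4.83 and 5.0 with 17βE, against 4.44, 4.72 and 4.67 in control cells. The groups did not overlap in either fraction. The log2 differences of 0.57 (SE 0.15) and 0.31 (SE 0.15) did not pass limma's test, with adjusted p = 0.37 in c-kit+ cells and 0.949 in CD44+ cells. The second probe set lay between 3.14 and 3.61, below the highest Y-linked value on all 12 arrays, and gives no comparison. RefSeq annotates Cxcl11 as a transcribed pseudogene in the GRCm38.p6 assembly, which is of the strain C57BL/6J, so the values describe a transcript.

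The genes of these 3 ligands lie within 41966 bases of chromosome 5 in GRCm38.p6: Cxcl9 at chr5:92321331-92328079, Cxcl10 at chr5:92346638-92348889 and Cxcl11 at chr5:92359544-92363296. The 250 bases before the annotated start of Cxcl10 (chr5:92348890-92349139, minus strand) and of Cxcl9 (chr5:92328080-92328329, minus strand) are shown because these neighbours gave the most and the least separated groups of the CXCR3 ligands. The letters are RefSeq's, 5′ to 3′ along the gene, and capitals mark matches, on either strand, to the NF-κB motif (GGG and CC with 5 free bases between) or to the interferon-stimulated response element (GAAA and GAAA with 2 free bases between).
Cxcl10: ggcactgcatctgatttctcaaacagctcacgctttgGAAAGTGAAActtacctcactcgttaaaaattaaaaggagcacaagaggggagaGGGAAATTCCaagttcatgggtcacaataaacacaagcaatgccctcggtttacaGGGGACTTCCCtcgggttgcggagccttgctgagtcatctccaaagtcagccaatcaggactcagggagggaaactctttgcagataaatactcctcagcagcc
Cxcl9: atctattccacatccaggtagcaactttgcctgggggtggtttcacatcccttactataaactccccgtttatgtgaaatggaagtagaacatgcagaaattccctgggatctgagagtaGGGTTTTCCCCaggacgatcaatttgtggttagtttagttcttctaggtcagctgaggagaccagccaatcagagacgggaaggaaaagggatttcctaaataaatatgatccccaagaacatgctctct
Cxcl10 held the interferon motif at -213 to -204 from the start and NF-κB matches beginning at -159 and -104, the second of which overlaps a further match shifted by 1 base. Cxcl9 held overlapping NF-κB matches beginning at -130 and no interferon motif in this window. Promoters of 7 of the 10 members were in the table. The interferon motif was found in 2 of these, Cxcl10 and Cxcl14, and in 2.98% of 32851 promoters. The NF-κB motif, found in 6 of 7, was found in 45.8% of all promoters. The estrogen response element (GGTCA and TGACC with 3 free bases between) was found in 0 of 7 and in 0.0639% of all promoters. These matches describe letters only.

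**Figure D2:**
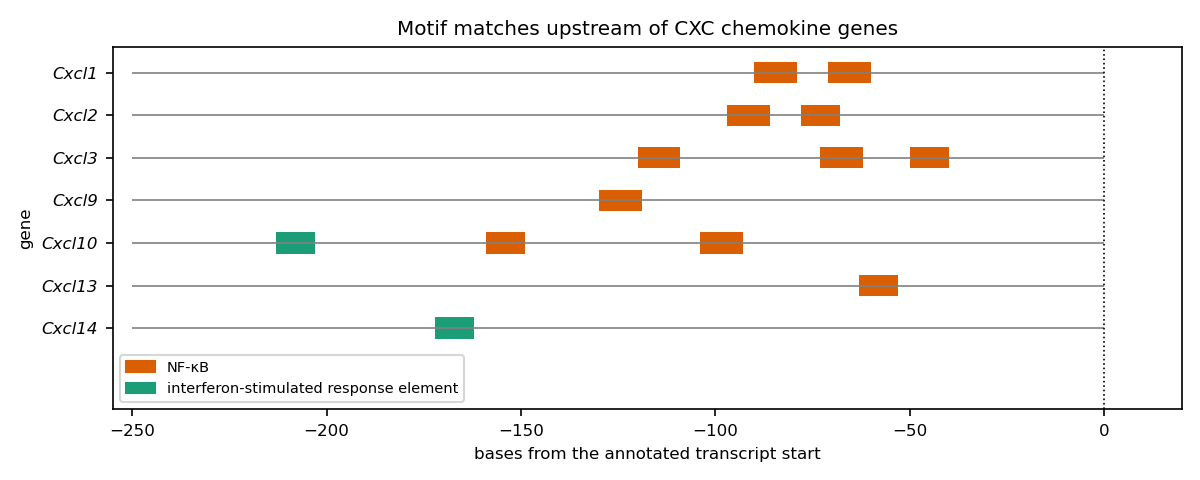
Positions of motif matches in the 250 bases before the annotated start of 7 CXC chemokine genes, in bases from the start at 0; orange blocks are NF-κB matches, with overlapping matches joined, and green blocks are interferon-stimulated response elements. The interferon motif appears for Cxcl10 and Cxcl14, and Cxcl14 is the one gene shown without an NF-κB match.

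Among the CXCR2 ligands, Cxcl3 had separated treated and control arrays in both fractions without passing the test. It gave 8.37, 9.20 and 8.72 in c-kit+ cells with 17βE, against 7.40, 8.15 and 7.86 in c-kit+ control cells. In CD44+ cells it gave 8.22, 9.01 and 8.85 with 17βE, against 7.08, 7.88 and 7.24 in control cells. The groups did not overlap, and within each group replicate 1 was the lowest and replicate 2 the highest. The log2 difference was 0.96 in c-kit+ cells (SE 0.27, 95% interval 0.37 to 1.55, limma adjusted p = 0.434) and 1.29 in CD44+ cells (SE 0.27, 95% interval 0.70 to 1.89, limma adjusted p = 0.0927). Arrays of equal number differed by 0.97, 1.05 and 0.86 in c-kit+ cells and by 1.15, 1.13 and 1.61 in CD44+ cells. In CD44+ cells arrays of equal number deviated alike from their group means (correlations 0.303, 0.368 and 0.322), though the labels do not say what a number shares. With the replicate number as a block over all arrays, the SE of Cxcl3 was 0.11 and the CD44+ difference passed limma's test (adjusted p = 0.000648). That block is shared with c-kit+ and control arrays, where the numbers did not match throughout, so its p-values are tentative.

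**Figure D3:**
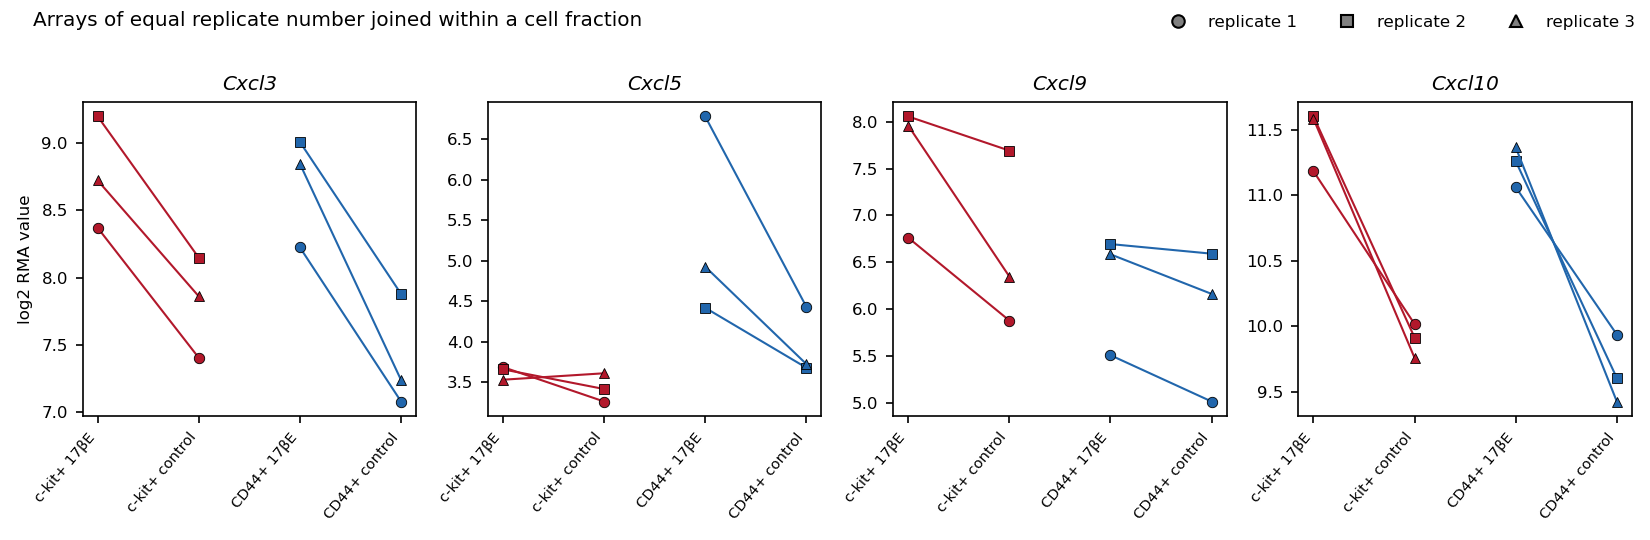
Log2 RMA values of Cxcl3, Cxcl5, Cxcl9 and Cxcl10 in 17βE and control cultures, with arrays of equal replicate number joined by a line within each cell fraction (red, c-kit+; blue, CD44+). The lines of Cxcl3 run nearly parallel in c-kit+ cells, whereas those of Cxcl9 start at different levels and differ in slope.

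Cxcl1, the mouse counterpart of GRO-α, gave 13.94, 13.81 and 13.87 in c-kit+ cells with 17βE, against 13.50, 13.35 and 13.48 in c-kit+ control cells. CD44+ cells had 13.84, 13.79 and 13.76 with 17βE, against 13.53, 13.27 and 13.02 in control cells. The log2 differences were 0.43 (SE 0.12, limma adjusted p = 0.4) and 0.52 (SE 0.12, limma adjusted p = 0.143). Without replicate 1 of the CD44+ control cells the CD44+ difference was 0.65 and passed (adjusted p = 0.0282). The probe set lay at the upper end of the arrays' scale, where between 32 and 159 of 45101 probe sets were brighter on an array. The 2 other Cxcl1 probe sets gave larger differences, 0.74 and 0.53 in c-kit+ cells and 0.88 and 0.58 in CD44+ cells. In a fit over every probe set that names 1 gene, the one with the difference of 0.58 passed limma's test (adjusted p = 0.0293), and so did the mean of the 3 probe sets in the fit over genes, at 0.66 (adjusted p = 0.0214). That probe set and the brightest one carry the suffixes x and s, by which Affymetrix marks probes that can also match other transcripts. In these 2, signal from close relatives cannot be told apart from that of Cxcl1. The remaining probe set, at 0.74 and 0.88, carries neither suffix. It did not pass limma's test in the fit over every probe set (adjusted p = 0.173 and 0.0604).

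Cxcl2, known as MIP-2, gave 13.98, 13.94 and 13.94 in c-kit+ cells with 17βE, against 13.79, 13.75 and 13.94 in c-kit+ control cells. The CD44+ values were 13.92, 13.88 and 13.93 with 17βE, against 13.82, 13.73 and 13.37 in control cells. In c-kit+ cells the lowest treated and the highest control array were nearly equal. The log2 differences of 0.13 (SE 0.12, limma adjusted p = 0.999) and 0.27 (SE 0.12, limma adjusted p = 0.875) did not pass the test. Between 25 and 65 probe sets were brighter on an array, so Cxcl2 too lay at the upper end of the scale.

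Cxcl5, which in mice is made largely by epithelial and stromal cells, gave 3.69, 3.66 and 3.53 in c-kit+ cells with 17βE, against 3.26, 3.42 and 3.61 in c-kit+ control cells. In CD44+ cells it gave 6.78, 4.42 and 4.93 with 17βE, against 4.43, 3.68 and 3.73 in control cells. Only 4 arrays, the 3 of treated CD44+ cells and 1 of CD44+ control cells, exceeded the highest value of the Y-linked probe sets, so no difference is given for c-kit+ cells. In CD44+ cells the groups overlapped and the log2 difference was 1.43 (SE 0.43, 95% interval 0.49 to 2.37, limma adjusted p = 0.457). Without replicate 1 of the treated CD44+ cells, the array at 6.78, it was 0.73 (limma adjusted p = 0.517).

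Cxcl5, Cxcl3, Cxcl1 and Cxcl2 lie within 146641 bases of chromosome 5 in GRCm38.p6, Cxcl3 at chr5:90786101-90788093, Cxcl1 at chr5:90891245-90893121 and Cxcl2 at chr5:90903899-90905938. The CXC genes Ppbp, Pf4 and Cxcl15 lie within that span too, Cxcl15 between Cxcl3 and Cxcl1. Their log2 differences with 17βE in c-kit+ and CD44+ cells were of mixed sign. They were 0.067 and -0.22 for Ppbp, -0.034 and 0.057 for Pf4, and 0.026 and -0.28 for Cxcl15. The upstream 250 bases of Cxcl3, Cxcl1 and Cxcl2, all on the plus strand, are shown because these 3 genes shared both the direction of their differences and a stretch of sequence. They span chr5:90785851-90786100 for Cxcl3, chr5:90890995-90891244 for Cxcl1 and chr5:90903649-90903898 for Cxcl2, again with capitals for NF-κB matches.
Cxcl3: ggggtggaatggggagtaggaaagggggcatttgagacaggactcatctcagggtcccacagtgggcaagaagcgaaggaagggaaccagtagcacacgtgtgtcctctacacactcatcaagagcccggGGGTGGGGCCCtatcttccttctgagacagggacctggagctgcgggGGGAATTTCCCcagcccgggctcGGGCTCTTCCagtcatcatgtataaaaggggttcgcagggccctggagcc
Cxcl1: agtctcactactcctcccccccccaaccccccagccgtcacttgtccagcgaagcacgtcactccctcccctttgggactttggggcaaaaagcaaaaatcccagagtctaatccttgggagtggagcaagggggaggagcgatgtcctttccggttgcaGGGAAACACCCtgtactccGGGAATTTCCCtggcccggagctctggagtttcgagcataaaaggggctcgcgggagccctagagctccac
Cxcl2: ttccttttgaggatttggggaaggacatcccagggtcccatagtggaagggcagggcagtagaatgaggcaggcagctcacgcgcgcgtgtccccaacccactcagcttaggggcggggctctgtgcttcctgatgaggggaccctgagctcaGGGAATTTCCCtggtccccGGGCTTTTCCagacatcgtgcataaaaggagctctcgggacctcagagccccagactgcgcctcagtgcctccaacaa
Each holds GGGAATTTCC, a form of the NF-κB motif, beginning at -73 from the start in Cxcl3, at -71 in Cxcl1 and at -97 in Cxcl2. This exact form, searched for after the first matches had been seen, occurs in 28 of 32851 promoters (0.0852%), among them these 3 of 7 member promoters. Each of the 3 genes holds at least 1 further match to the looser motif.

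Of the remaining members, Cxcl16, a membrane-anchored ligand of CXCR6 that also serves as a scavenger receptor of macrophages, gave 11.24, 11.74 and 11.30 in c-kit+ cells with 17βE, against 10.98, 11.21 and 11.50 in c-kit+ control cells. CD44+ cells had 11.07, 11.59 and 11.34 with 17βE, against 10.76, 10.99 and 10.67 in control cells. The groups overlapped in c-kit+ cells and not in CD44+ cells. The log2 differences were 0.20 (SE 0.18, limma adjusted p = 0.999) and 0.52 (SE 0.18, limma adjusted p = 0.577). The second probe set, which carries the suffix s, gave 0.30 and 0.56. Cxcl13, the B cell attractant that acts on CXCR5, lay between 5.10 and 5.76 on all 12 arrays with overlapping groups and differences of -0.21 and -0.22 (SE 0.15 each). Its second probe set, which exceeded the highest Y-linked value on 8 of 12 arrays, had the opposite sign, at 0.38 and 0.14. Cxcl14, a broadly expressed chemokine of epithelia, lay between 4.07 and 4.48, just above the highest Y-linked value of 3.98. It differed by -0.06 and -0.11 (SE 0.12 each), which so near background does not show whether it changed. Its second probe set, at 3.87 to 4.51, also had the opposite sign, at 0.044 and 0.062.

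**Figure D4:**
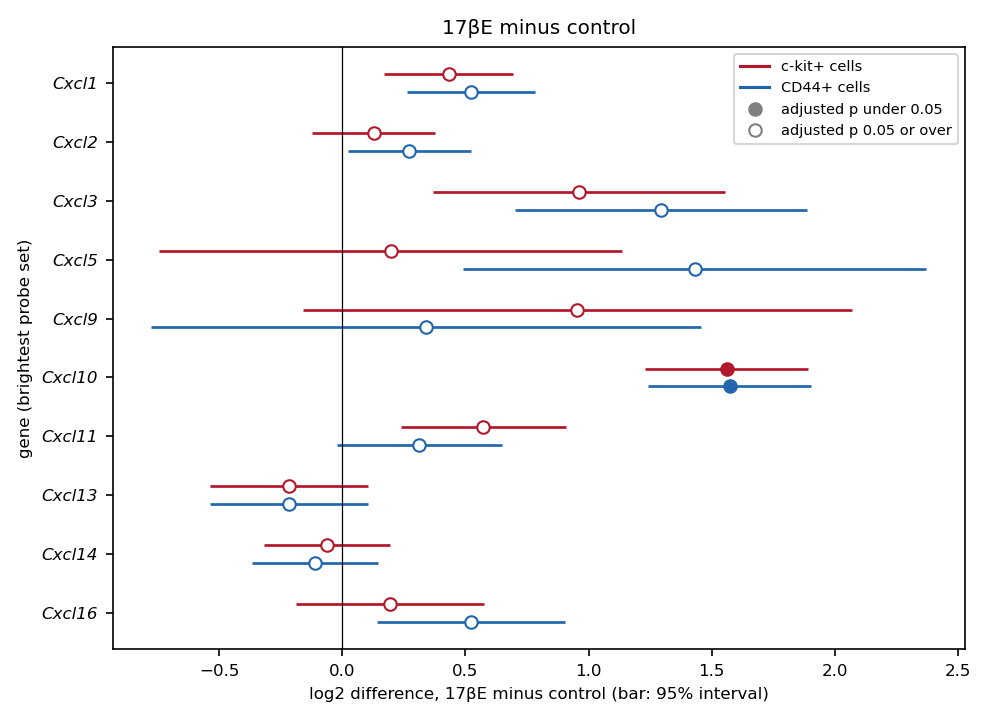
Log2 difference between 17βE and control cultures for each CXC chemokine in c-kit+ and CD44+ cells, with the 95% interval of the moderated fit; filled points passed the test, and Cxcl5 in c-kit+ cells was at background level in both groups. Cxcl10 is the gene with filled points, at 1.56 and 1.57, and the intervals of Cxcl5 and Cxcl9 are the widest.

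Between the fractions, no member passed the test in either culture. In control cultures 0 of 10 members passed limma's test of c-kit+ against CD44+ cells, where 2.3% of genes did, and 1 member, Cxcl16, had an unadjusted p under 0.05, against 13.6% of genes. In 17βE cultures 0 of 10 passed, where 2.65% of genes did, and 3 members, Cxcl5, Cxcl9 and Cxcl11, had an unadjusted p under 0.05, against 9.77% of genes. In 17βE cultures 3 of 10 members (Cxcl2, Cxcl9 and Cxcl11) had all c-kit+ arrays above all CD44+ arrays, against 10% of all genes, and Cxcl5 had them all below, against 8.15%. For Cxcl2 the lowest c-kit+ array exceeded the highest CD44+ array by 0.0052. In control cultures Cxcl5 alone was separated, below the CD44+ arrays, against 8.33% of all genes, and none was above them, against 7.41%. That order of Cxcl5 was 3.61 against 3.68, among values at background level.

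In 17βE cultures Cxcl9 was separated upward in c-kit+ cells and Cxcl5 downward. With the values given above, Cxcl9 in 17βE cultures had a log2 difference of 1.33 between c-kit+ and CD44+ cells (SE 0.52, 95% interval 0.22 to 2.45, limma adjusted p = 0.347). The 3 same-numbered differences were 1.26, 1.36 and 1.37. Arrays of equal number deviated alike in 17βE cultures (correlations 0.447, 0.192 and 0.312). With the number as a block over all arrays, the SE was 0.20 and the difference passed limma's test (adjusted p = 0.00204). This block too is shared with control arrays, whose numbers did not match. In control cultures the difference was 0.72 (limma adjusted p = 0.608), with same-numbered differences of 0.86, 1.10 and 0.19. Cxcl5 averaged 3.63 in c-kit+ and 5.38 in CD44+ cells of 17βE cultures. Because all 3 c-kit+ arrays lay below the highest Y-linked value of 3.98, the ratio of these means has only a bound. It was at least 2.64-fold lower in c-kit+ cells when that value takes their place. This bound holds for these arrays only, since the CD44+ mean is raised by the array at 6.78 beside 4.42 and 4.93. The fitted difference of -1.75 (SE 0.43, limma adjusted p = 0.0534), which passed with the block (adjusted p = 0.0251), rests on the c-kit+ values at background level. Without replicate 1 of the treated CD44+ cells, the array at 6.78, the fitted Cxcl5 difference was -1.05 (limma adjusted p = 0.0379), and without replicate 2 it was -2.23 (limma adjusted p = 0.00885).

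**Figure D5:**
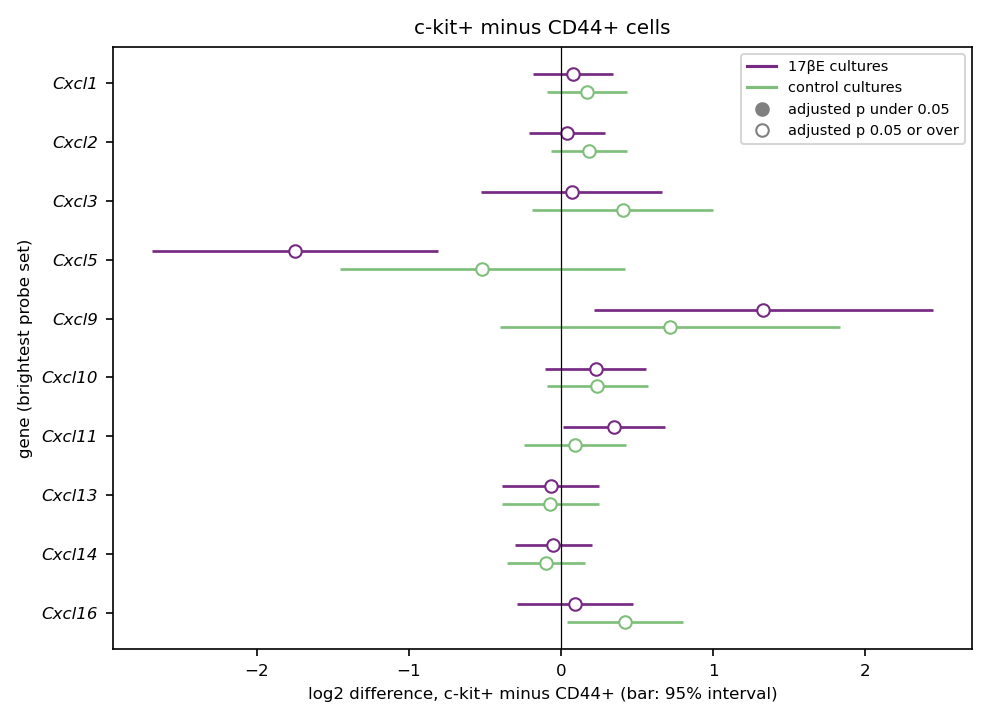
Log2 difference between c-kit+ and CD44+ cells for each CXC chemokine in 17βE and control cultures, with the 95% interval of the moderated fit. No difference passed the test, Cxcl9 in 17βE cultures stands highest at 1.33 and Cxcl5 in 17βE cultures lowest at -1.75, with its c-kit+ arrays at background level.

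Other measures also separated the fractions. Of 12 lists of cell type markers, the array means of 3 were separated downward in c-kit+ cells of 17βE cultures, against 7 downward and 1 upward in control cultures. The mean of 7 mesenchymal and osteoblast markers was 5.17 to 5.91 in c-kit+ cells with 17βE against 6.85 to 7.63 in CD44+ cells with 17βE, and 5.23 to 5.67 in c-kit+ control cells against 6.51 to 7.43 in CD44+ control cells. Of these, 4 (Col1a1, Col1a2, Col3a1 and Pdgfrb) passed limma's test as lower in c-kit+ cells in both cultures. Of all genes 2.65% passed in 17βE and 2.3% in control cultures, in either direction. The dendritic cell list was at 7.27 to 7.35 in c-kit+ against 7.5 to 7.56 in CD44+ cells of 17βE cultures, and at 6.86 to 7.14 against 7.34 to 7.41 in control cultures. Its genes were split, with 4 above 0 and 3 below in 17βE cultures (median 0.014), and 2 above and 5 below in control cultures (median -0.12). The stem and progenitor list was at 5.29 to 5.56 against 5.68 to 5.90 in 17βE cultures, and at 5.34 to 5.588 against 5.590 to 5.92 in control cultures. Of its 5 measured genes, 1 was above 0 and 4 below in each culture. The median was -0.061 in 17βE and -0.18 in control cultures, and Cd34 was lowest, at -1.43 and -1.28. In control cultures the neutrophil, T and NK cell, mast cell and megakaryocyte lists were separated downward too, by 0.07 to 0.41 in the mean, and the monocyte and macrophage list upward by 0.14. The mast cell list, at 3.85 to 4.12 on those arrays, and the T and NK cell list, at 4.13 to 4.28, were near the highest Y-linked value of 3.98. By limma's test H2-Ab1, an MHC class II chain, was lower in c-kit+ cells in both cultures, Cd34 in 17βE cultures and Cd74 in control cultures, the macrophage mannose receptor Mrc1 was higher in both, and the adipocyte marker Fabp4 was higher in control cultures. The 3′ minus 5′ difference of the Actb probe sets, a measure of RNA quality, ranged from 2.34 to 4.68 in c-kit+ cells and from 1.52 to 2.14 in CD44+ cells. That of Gapdh was 4.23 to 6.17 in c-kit+ and 3.32 to 4.31 in CD44+ cells of 17βE cultures, which overlap, and 4.62 to 5.35 and 2.83 to 4.14 in control cultures, which do not. The part of these measures in the differences of Cxcl5 and Cxcl9 was not tested.

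With 17βE, the Actb and Gapdh 3′ minus 5′ differences overlapped between treated and control arrays in both fractions. Of the 12 marker lists, the mean of 1 was separated upward in c-kit+ cells, that of dendritic cells, at 7.27 to 7.35 with 17βE against 6.86 to 7.14 in control cells. In CD44+ cells 3 were, dendritic cells at 7.5 to 7.56 against 7.34 to 7.41, monocytes and macrophages at 11.43 to 11.58 against 11.33 to 11.41, and endothelium at 4.25 to 4.40 against 4.14 to 4.24. The endothelial list was thus near the highest Y-linked value of 3.98. The neutrophil list was separated downward in CD44+ cells, at 4.77 to 4.88 against 4.89 to 5.01. In the dendritic list 1 of 7 genes passed limma's test, Cd83 in CD44+ cells, a maturation marker (log2 difference 1.23, adjusted p = 0.0266), against 0.291% of all genes there. All 7 genes of that list had a difference above 0 in c-kit+ cells (median 0.082), but in CD44+ cells 3 did and 4 were below 0 (median -0.018). The part of these shifts in the chemokine differences was not tested.

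Of the receptors, 7 of 8 listed were measured and 0 passed limma's test with 17βE in either fraction. Of all genes 0.181% passed in c-kit+ and 0.291% in CD44+ cells. Cxcr4, the receptor of Cxcl12, had differences of 0.59 (adjusted p = 0.74) and 0.62 (adjusted p = 0.529), and Cxcr6 lay below the highest Y-linked value on all 12 arrays. Of the 5 other CXC ligands, 0 passed with 17βE, with the smallest p for Cxcl15 (0.026 and -0.28, adjusted p = 0.999 and 0.875) and Cxcl17 (-0.26 and -0.26, adjusted p = 0.999 and 0.949). Cxcl12 was the member of that list that passed between the fractions, lower in c-kit+ cells by a log2 difference of -2.57 in 17βE cultures (adjusted p = 0.00341) and -2.84 in control cultures (adjusted p = 0.00257).

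Among the inducers, 3 of 7 cytokine genes rose with 17βE in both fractions by limma's test, against 0.137% of all genes. Il6 had a log2 difference of 2.66 in c-kit+ cells (adjusted p = 0.000887) and 1.97 in CD44+ cells (adjusted p = 0.00513). Of the 3 c-kit+ control arrays, 2 lay below the highest Y-linked value of 3.98. The CD44+ control arrays lay just above it, at 4.35, 4.21 and 4.07, so the size of both Il6 differences is uncertain. Il1b, the secreted interleukin-1, had 1.14 (adjusted p = 0.00951) and 1.33 (adjusted p = 0.00307), and Il1a had 1.09 (adjusted p = 0.0124) and 1.03 (adjusted p = 0.0151). Of 10 measured NF-κB subunits and inhibitors, 2 rose in both fractions by limma's test, again against 0.137% of all genes. They were Rel, the c-Rel subunit (0.86, adjusted p = 0.00771, and 0.89, adjusted p = 0.00433), and Nfkbie, the inhibitor IκBε (1.17, adjusted p = 0.000887, and 1.19, adjusted p = 0.000669). All 10 genes of this list had differences above 0 in both fractions, where 55.1% and 53.2% of all genes did.

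Of 14 measured genes of interferon signalling, 1 rose in c-kit+ cells and 2 in CD44+ cells by limma's test. For this and the next 2 lists, 0.181% of all genes passed in c-kit+ and 0.291% in CD44+ cells, in either direction. Ifnb1, interferon-β, rose in both (0.88, adjusted p = 0.0049, and 0.70, adjusted p = 0.0127). It was dim, at 4.70 to 5.04 on control arrays and 5.42 to 5.83 with 17βE, where the highest Y-linked value was 3.98. Irf1, a transcription factor of the interferon response, passed in CD44+ cells (0.96, adjusted p = 0.0295) and not in c-kit+ cells (0.58, adjusted p = 0.445), a contrast whose own test did not pass. Ifng, interferon-γ, lay between 3.23 and 3.40 on all 12 arrays, below that Y-linked value. Of 6 factors of chemokine mRNA decay 0 passed, with the smallest p for Zc3h12a, the RNase Regnase-1 (0.75, adjusted p = 0.518, and 0.27, adjusted p = 0.949), and Zfp36, tristetraprolin (0.70, adjusted p = 0.694, and 0.75, adjusted p = 0.486). Of 5 enzymes that process or shed chemokines 0 passed, with the smallest p for Adam17 (0.087, adjusted p = 0.999, and 0.36, adjusted p = 0.663) and Dpp4 (0.13, adjusted p = 0.999, and -0.20, adjusted p = 0.949).

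For the 6 members that spanned at least 1 log2 unit, the genes of most similar pattern were sought by the root mean square difference between values centred on their own mean, over 12 arrays and all genes. Closest to Cxcl10 were Cd40 at 0.20, Il1b at 0.20 and Ptgs2 at 0.22, where the values of Cxcl10 themselves had a root mean square of 0.81 about their mean. Closest to Cxcl9, at 0.90 about its own mean, were AW112010 at 0.33, Ccl5 at 0.44 and Irf7 at 0.47. Closest to Cxcl3, at 0.67, were Fpr2, F10 and Slc13a3, all at 0.27. Closest to Cxcl5, at 0.94, were F3 at 0.31, Dmp1 at 0.40 and Tnfrsf11b at 0.42. Cxcl5 exceeded the highest Y-linked value on only 4 of 12 arrays, so most of its pattern is at background level. Cxcl11 was most like Arrdc2, Rbm7 and Rbm39, and Cxcl16 most like Gbe1, Pla2g7 and N4bp1. The arrays of a group share their treatment, so these likenesses are a description.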

How the data were processed

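The values are the authors' deposited log2 expression values of 12 Affymetrix mouse arrays (biotin-labelled RNA amplified in 2 cycles, per the labels' protocols). They were made with RMA, per the submitters' processing notes. No version of it is named in the labels. RMA corrects background, quantile-normalizes probes and summarises probe sets by median polish. Values entered as deposited, with no filter. They ran from 2.47 to 14.81 and array medians from 4.75 to 4.84. Precision is limited by the number of arrays. Of 45101 probe sets, 64 were controls, 34945 named 1 gene, 932 several and 9160 none here.

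The test was limma 3.58.1 (R 4.3.3), with 1 mean per group over 12 arrays, empirical Bayes without trend and Benjamini-Hochberg adjustment over 18193 genes at a threshold of 0.05. The code was tested on simulated data. Figures were drawn with matplotlib 3.10.9, and tables with pandas 2.3.3 under Python 3.11.15.

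All members, gene lists and comparisons were chosen with earlier results of these data known. Named genes were the members, Kit, Cd44 and Cxcl12, the genes that passed in each list (at most 6) or else the 2 of smallest p, and the 3 most similar genes of members spanning at least 1 log2 unit. Csf1r, the genes of the marker lists, Ifng and the genes sharing an exact motif form were chosen with their values in view.

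To see if equal replicate numbers mark related arrays, deviations from group means were correlated between them. The correlations were above 0.1 for every pair in CD44+ cells (0.303, 0.368 and 0.322) and in 17βE cultures (0.447, 0.192 and 0.312). They were not in c-kit+ cells (0.345, 0.0916 and 0.253) or in control cultures (0.175, 0.122 and -0.208). The alternatives tried averaged a gene's probe sets or tested every probe set, or used quantile normalization, bright genes only, trended and robust moderation, array weights, the arrays compared alone, the replicate block and leaving out each array of the groups compared. Promoters are RefSeq's, GRCm38.p6.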

Additional observations from a re-analysis of the deposited data

How the results depend on the processing

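Of 690 alternative values of the members, 643 kept their direction and side of the threshold, 11 passed newly, 36 changed sign and 0 lost a pass. Only Cxcl10 with 17βE had a pass to lose, in 13 alternatives in c-kit+ and 14 in CD44+ cells. Most of the values that kept their side had not passed to begin with. Cxcl10 passed with 17βE in both fractions under every alternative run, with differences of 1.49 to 1.70 in c-kit+ and 1.46 to 1.71 in CD44+ cells when 1 array was left out. In c-kit+ cells its highest adjusted p in limma was 0.0498, just under the threshold. With 17βE in CD44+ cells, 2 members passed with the mean of probe sets, 2 with every probe set, 4 with array weights (Cxcl1, Cxcl3 and Cxcl5 beside Cxcl10), 2 with the replicate block and 1 to 2 with 1 array left out. Those weights give replicate 2 of the CD44+ control cells 9.38 and the other arrays 0.254 to 1.48, so that mean rests mostly on 1 array. In c-kit+ cells 2 passed with the replicate block, Cxcl3 being the other (adjusted p = 0.00423), and in c-kit+ against CD44+ cells of 17βE cultures 2 passed with the block and 0 to 1 with 1 array left out. The count of all genes passing with 17βE in c-kit+ cells (33) was 55 with array weights, 62 with the block, 2 with these 6 arrays alone and 10 to 45 with 1 array left out (10 without replicate 2 and 21 without replicate 3 of the treated c-kit+ cells). In CD44+ cells (53) it was 1405, 101 and 22 to 76, with array weights, the block and 1 of the 6 arrays compared left out, 29 and 22 without replicates 2 and 3 of the treated CD44+ cells, 29 and 30 without replicates 2 and 3 of the CD44+ control cells, and 97 without replicate 3 of the c-kit+ control cells, an alternative chosen after seeing the data. Between fractions in control cultures (418) it was 1058 with array weights, 693 with the block, 196 with the arrays compared alone and 221 to 456 with 1 array left out (238 without replicate 1 of the c-kit+ and 221 without replicate 3 of the CD44+ control cells). Between fractions in 17βE cultures (483) it was 250 for bright genes, 779 with array weights and 269 to 436 with 1 array left out (269 without replicate 2 of the treated c-kit+ and 273 without replicate 1 of the treated CD44+ cells). With the mean of probe sets, Cxcl13 was 0.084 with 17βE in c-kit+ cells and 0.10 between fractions in 17βE cultures. With quantile normalization, the difference of the 17βE effects was 0.020 for Cxcl1, 0.029 for Cxcl2, 0.083 for Cxcl10, -0.066 for Cxcl13 and -0.021 for Cxcl14, and Cxcl13 was 0.055 between fractions in control cultures. With array weights, Cxcl9 was -0.16 with 17βE in CD44+ cells, the difference of effects was 0.17 for Cxcl3 and -0.0076 for Cxcl14, and Cxcl3 was -0.060 between fractions in control cultures. The cause of these changes was not tested. With 1 array left out, Cxcl9 ranged from -0.11 to 0.72 with 17βE in CD44+ cells and Cxcl14 from -0.15 to 0.057 in c-kit+ cells. The difference of effects then ranged from -0.22 to 0.036 for Cxcl1, -0.15 to 0.12 for Cxcl10, -0.12 to 0.12 for Cxcl13 and -0.037 to 0.17 for Cxcl14. Between fractions in 17βE cultures the ranges were -0.16 to 0.27 for Cxcl3, -0.19 to 0.040 for Cxcl13 and -0.064 to 0.22 for Cxcl16, and in control cultures -0.030 to 0.24 for Cxcl11 and -0.18 to 0.031 for Cxcl13. The arrays compared alone were not run for the difference of effects, which uses all 12 arrays. The replicate block changed no other call of a member than those given here and beside the results.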
